A study of Mus musculus with 8 samples.

Results

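Postn, Lum, Ogn, Dcn, Eln, Mmp11 and Mmp14, 7 genes of the stromal extracellular matrix, were followed in embryonic mouse gonads. Every probe set that the platform annotation gave to 1 of these 7 genes was taken, which made 9 of the 12488 probe sets and 7 of the 8252 genes named on the array. The 7 genes were selected on earlier results from the same arrays, that is, on their log2 signals across genotype, stage and sex, so those differences are given as descriptions and not as tests. Total RNA of whole gonads was hybridised to 8 arrays of the Affymetrix MG_U74Av2 design. Each array stood for its own group: Wnt4 knock-out (KO) and wild-type (WT) gonads of males and of females at E14.5 and at E12.5. Wnt4 encodes a secreted Wnt ligand required in ovary development. The labels name neither the allele nor the strain, and they do not say whether gonads were pooled. The values are log2 signals, centred so that every array has the same median.

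The stroma of a fetal gonad is the mesenchyme around the germ cells and their supporting cells, and it lays down a matrix of collagen fibrils, elastic fibres and proteoglycans. Lumican (Lum), decorin (Dcn) and osteoglycin (Ogn) are small leucine-rich proteoglycans, which bind collagen fibrils and set how thick they grow. Periostin (Postn) is a matricellular protein that links collagen to cell surface integrins and to other matrix proteins. Elastin (Eln) is the rubber-like core of elastic fibres. Mmp14 is a membrane-bound matrix metalloproteinase that cuts collagen and activates pro-MMP2, while Mmp11, also called stromelysin-3, is a secreted metalloproteinase typical of stroma around epithelia that are being remodelled.

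RefSeq start sites were at hand for 4 of the 7 genes (Postn, Ogn, Mmp11 and Mmp14), with 2 starts for Postn. The 250 bases upstream are shown for Postn and Mmp14, which were higher in KO gonads in every pair of arrays, and for Ogn, which was higher at E14.5. Each is written 5′ to 3′ on the strand of the gene, from build GRCm38.p6. Capitals mark matches, on either strand, to the TATA box, written TATAAA, the GC box, written GGGCGG, and the E box, written CANNTG. The AP-1 word TGACTCA was also searched for on both strands. So were the TCF/LEF word CTTTGAT and its variant that ends in A, CTTTGAA.
Postn, outer start, chr3:54359017-54359266, plus strand: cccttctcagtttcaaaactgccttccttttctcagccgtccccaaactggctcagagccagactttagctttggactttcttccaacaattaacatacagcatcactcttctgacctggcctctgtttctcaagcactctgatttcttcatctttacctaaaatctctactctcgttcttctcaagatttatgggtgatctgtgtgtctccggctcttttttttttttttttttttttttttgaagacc
Postn, inner start, chr3:54360857-54361106, plus strand: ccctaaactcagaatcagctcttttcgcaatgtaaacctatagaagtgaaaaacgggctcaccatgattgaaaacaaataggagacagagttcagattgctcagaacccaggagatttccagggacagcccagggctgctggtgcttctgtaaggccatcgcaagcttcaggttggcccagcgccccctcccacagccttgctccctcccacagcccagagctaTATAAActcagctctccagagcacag
Mmp14, chr14:54431348-54431597, plus strand: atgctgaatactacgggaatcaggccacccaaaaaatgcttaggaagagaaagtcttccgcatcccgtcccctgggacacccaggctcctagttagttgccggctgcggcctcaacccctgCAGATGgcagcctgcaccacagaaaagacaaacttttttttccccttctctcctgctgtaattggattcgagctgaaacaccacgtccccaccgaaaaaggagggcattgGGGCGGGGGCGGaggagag
Ogn, chr13:49607765-49608014, plus strand: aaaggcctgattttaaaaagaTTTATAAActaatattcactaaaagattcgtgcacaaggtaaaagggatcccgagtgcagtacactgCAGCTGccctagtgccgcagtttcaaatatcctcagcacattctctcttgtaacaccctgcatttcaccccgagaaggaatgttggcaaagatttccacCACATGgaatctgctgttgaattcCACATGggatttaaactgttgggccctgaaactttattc

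The windows differed in what they held. The inner Postn start had a TATA box at positions -26 to -21 from the start, and its outer start had none of the motifs. Mmp14 had 2 adjoining GC boxes within 19 bases of its start and 1 E box, and Ogn had 3 E boxes and overlapping TATA letters on both strands at -229 to -222. Neither TCF/LEF word was found in these 4 windows, nor was the AP-1 word. Of all 32851 windows of the same length, 3.21% held CTTTGAT, 4.46% CTTTGAA, 4.46% TGACTCA, 12.4% TATAAA, 32.7% GGGCGG and 66.2% CANNTG. A match is a run of letters and no evidence of binding.

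Genes of the 2 proteoglycan clusters lie side by side in RefSeq. On chromosome 10 the order is Dcn, Lum, Kera, Epyc, and on chromosome 13 Aspn, Omd and Ogn follow each other. Kera and Epyc were below the floor on all 8 arrays, and so was Omd, while their neighbours Dcn, Lum and Ogn were measured. No probe set was annotated to Aspn alone, so it has no reading.

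Each of the 8 groups had 1 array, so no spread between replicates could be taken, and precision is limited by having so few arrays. Errors are SEs of a limma fit over all 8 arrays and 8452 probe sets, with a separate genotype and stage term for each sex. The 2 E14.5 male arrays stood apart, correlating across probe sets at Pearson r of 0.883 to 0.907 with the other 6 arrays, which correlated with each other at 0.979 to 0.997. Centring added 0.47 (KO) and 0.43 (WT) to these 2 arrays and between -0.34 and 0.09 to the others, so the stage and sex values of males depend on it. A shift of the whole array and a change in the testis cannot be told apart. The array labelled WT female E14.5 carried transcripts of the testis. The summed signal of 8 Sertoli markers was 12.07 there, against 11.36 to 11.44 on the other 3 female arrays, and that of 6 Leydig markers 12.14 against 11.08 to 11.32. Among them Aard was at 9.87 against 8.41 to 8.50, and Cyp17a1 at 10.36 against 7.32 to 8.13. Not every marker was higher there. Vnn1, at 7.43, was below both E12.5 female arrays (7.83 and 7.96), and Nr5a1 was level. Hsd17b3 and Insl3 were below the floor on all female arrays. Wnt4 itself differed, KO minus WT, by -0.23 (E14.5) and -0.92 (E12.5) in males, and by -1.14 (E14.5) and -1.60 (E12.5) in females. Which part of the gene its probe set covers relative to the deletion is not known here.

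Levels spanned much of the range of the array. Dcn was the brightest of the 7 genes, and its probe set lay on average at the 97.8th percentile of all probe sets. Mmp14 was at the 96.0th percentile, Lum at the 90.1st, Eln at the 88.0th, Postn at the 87.8th, Mmp11 at the 67.8th and Ogn at the 51.4th. Signals of different probe sets are not levels per transcript, so this ranks brightness and not abundance. A floor was set at the 40th percentile of all values (6.99), below which differences were not read, and a probe set was fitted if it was above the floor on at least 2 arrays. Of the 9 probe sets, 7 were fitted, 1 for each gene. The second, dimmer Eln set was below the floor on all 8 arrays, and the second Ogn set was above it on 1 array, the KO female at E14.5, where it read 7.88.

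**Figure D1:**
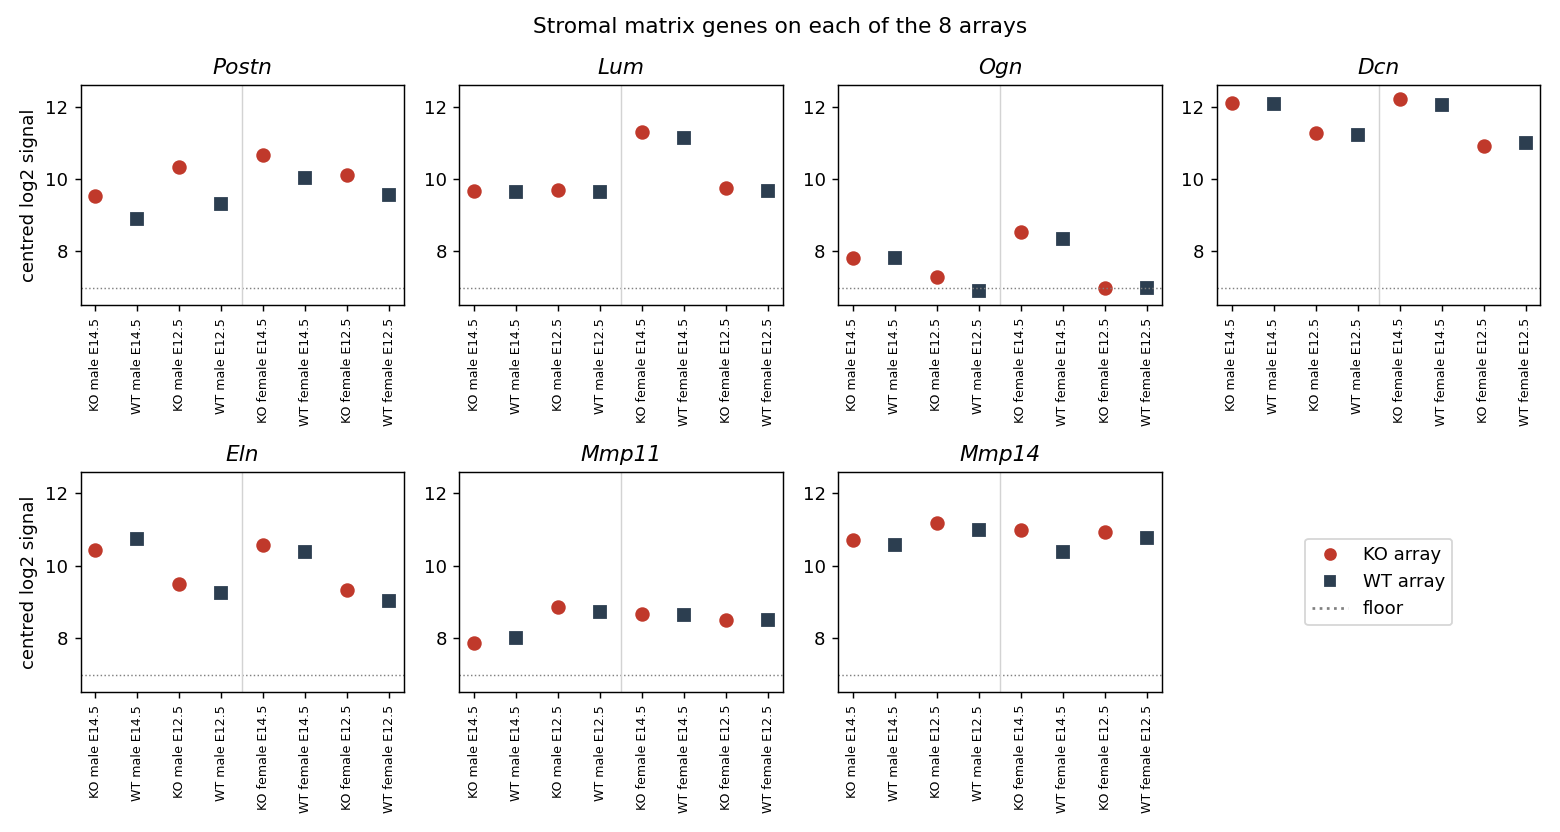
Centred log2 signal (y axis) of the probe set that stood for each gene, on each of the 8 arrays (x axis). Circles are KO arrays, squares are WT arrays, the dotted line is the floor, and the grey vertical line parts male from female arrays. Lum is high on both E14.5 female arrays and nearly level on the other 6, while the circles of Postn lie above their paired squares in all 4 pairs.

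KO gonads were compared with WT gonads to ask which stromal transcripts depend on Wnt4. Postn was higher in KO gonads of both sexes at both stages, and Mmp14 was higher in all 4 pairs by smaller amounts. Lum was also higher in all 4 pairs, by 0.19 at most, and the other 4 genes had pairs of both signs. No gene passed: limma called 0 of 8452 probe sets for the KO effect over both sexes, and 0 in males and 0 in females, which is 0.0% in either direction. At an unadjusted p under 0.05 there were 487, 405 and 962 probe sets. Among the 7 genes the fitted KO effect over both sexes was positive for 7 with a median of 0.11, beside 45.6% positive and a median of -0.01 over all fitted probe sets. As the genes were picked with these values known, nothing is read from that contrast. Leaving out 1 array turned the sign for Dcn (-0.01 without either E14.5 female array) and for Eln (-0.02) and Mmp11 (-0.05) without either E12.5 male array.

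Postn read 9.51 in KO males and 8.89 in WT males at E14.5, and 10.32 in KO males and 9.30 in WT males at E12.5. It read 10.65 in KO females and 10.02 in WT females at E14.5, and 10.11 in KO females and 9.56 in WT females at E12.5. All 4 KO arrays were above their paired WT array, although the groups overlap when stages and sexes are mixed, since the KO male at E14.5 was below 2 of the WT arrays. The differences were 0.62 and 1.02 in males at E14.5 and E12.5, and 0.63 and 0.55 in females at E14.5 and E12.5. Among the fitted probe sets these ranked 23rd, 6th, 20th and 26th from the highest. The fitted effect was 0.82 ± 0.11 in males and 0.59 ± 0.11 in females, and 0.70 ± 0.07 over both sexes, which is 1.63-fold. The difference between the sexes was 0.24 ± 0.15 and did not pass.

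Mmp14 was at 10.72 in KO males and 10.57 in WT males at E14.5, and at 11.19 in KO males and 11.00 in WT males at E12.5. In females it was at 10.99 in KO and 10.39 in WT gonads at E14.5, and at 10.94 in KO and 10.77 in WT gonads at E12.5. The pair of females at E14.5 differed by 0.60 and the other 3 pairs by 0.15 to 0.19. The fitted effect in females was 0.39 ± 0.11. It was 0.17 with either E14.5 female array left out, since the E12.5 pair is then all that remains. The WT female E14.5 array, which carried the testis transcripts, had the lowest Mmp14 reading of the 8 arrays, and their part in it was not tested.

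At a threshold of 1.5-fold, the KO females of E14.5 exceeded their WT pair for Postn and Mmp14, 2 of 7 genes where 0.367% of all fitted probe sets did. In the male pairs 1 of 7 genes was higher, Postn, both at E14.5 (0.367% of all) and at E12.5 (0.225%). In females at E12.5 it was 0 of 7 (0.284%), with Postn at 1.46-fold. No gene was 1.5-fold lower in any of the 4 pairs, where 0.177% (E14.5) and 0.237% (E12.5) of all probe sets were in males and 0.911% (E14.5) and 0.497% (E12.5) in females. Being positive in all 4 pairs held for 3 of 7 genes (Postn, Lum and Mmp14) and for 3.14% of all probe sets, while being negative in all 4 held for 0 of 7 and for 3.77% of all. These counts, too, are descriptions of genes picked with their values known.

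The proteoglycans differed little by genotype. For Lum the KO minus WT differences were 0.03 and 0.05 in males and 0.19 and 0.07 in females, at E14.5 and E12.5. Those of Dcn were 0.05 and 0.06 in males and 0.17 and -0.07 in females. Ogn differed by 0.00 in males and 0.20 in females at E14.5. At E12.5 it was at 7.29 in KO males and below the floor in WT males, so this difference of 0.30 is a lower bound. The second Ogn probe set gave at least 0.90 in females at E14.5 and could not be read in the other pairs. The WT array of the E14.5 female pair is the one that carried testis transcripts. Their part in the Lum, Dcn and Ogn values of that pair was not tested. Mmp11 stayed between -0.12 and 0.12 in all 4 pairs.

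Eln went both ways. It was at 10.44 in KO males and 10.73 in WT males at E14.5, a difference of -0.29, and at 9.49 in KO males and 9.25 in WT males at E12.5, a difference of 0.24. In females it was at 10.56 in KO and 10.38 in WT gonads at E14.5, and at 9.32 in KO and 9.01 in WT gonads at E12.5. Smooth muscle markers moved in the same direction as Eln in 3 of these pairs. Acta2, smooth muscle actin, differed by -0.68 (E14.5) and 0.49 (E12.5) between KO and WT males and by -0.09 (E14.5) and 0.59 (E12.5) between KO and WT females, and the summed signal of the 7 fitted smooth muscle markers out of 9 differed by -0.38, 0.13, -0.07 and 0.18 in these 4 pairs. Their part in the Eln values was not tested. In gonads measured whole, fewer cells of a type and less RNA per cell cannot be told apart.

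Markers of other cells were read beside Postn and Mmp14. The summed signal of 11 fitted mesenchyme markers out of 14, led by Pdgfra, Tcf21 and Nr2f1, differed by -0.04 and 0.08 in males and 0.06 and 0.01 in females, at E14.5 and E12.5. It lay between 12.44 and 13.00 on the 8 arrays, and 1 of the 11 was positive in all 4 pairs. The fitted KO effect over both sexes was positive for 6 of the 11 and negative for 5. Pdgfrb was lower in KO gonads in all 4 pairs, at -0.16 and -0.15 in males and -0.21 and -0.39 in females. Thy1 differed by 0.77 and -0.65 in males and by -0.60 and -1.08 in females, so the sum does not stand for each marker. The 9 endothelial markers differed by 0.07, 0.17, 0.11 and -0.05 in the same order, with 5 positive in all 4 pairs, and the 7 mesonephros and duct markers by 0.25, -0.13, -0.14 and -0.30. Wider differences were those of 5 nerve and crest markers, at 0.00 (E14.5) and 0.58 (E12.5) in both sexes, and of 5 coelomic epithelium markers, at 0.45 (E14.5) and 0.19 (E12.5) in males and -0.01 (E14.5) and -0.08 (E12.5) in females. The 6 summed pregranulosa markers, Wnt4 among them, differed by 0.26 (E14.5) and -0.50 (E12.5) in males and by -0.79 (E14.5) and -1.19 (E12.5) in females. Of the 7 fitted, Rspo1 was left out of this sum, as it has no value on the KO male E12.5 array. Rspo1 was higher in KO gonads, by 0.658 in E14.5 males and by 0.444 (E14.5) and 0.415 (E12.5) in females. The fitted KO effect in females was positive for 1 of the 7 and negative for 6. The 8 Sertoli markers differed by -0.56 (E14.5) and -0.02 (E12.5) in males and by -0.71 (E14.5) and 0.08 (E12.5) in females. The 6 Leydig markers differed by -0.49 (E14.5) and 0.16 (E12.5) in males and by -0.85 (E14.5) and 0.24 (E12.5) in females. Nr5a1, the brightest, differed by 0.08 in males and 0.04 in females at E12.5, and Cyp17a1 by -0.07 and 0.12. Star differed there by 0.90 in males and at least 1.10 in females, and Cyp11a1 by 0.75 and at least 0.94. Hsd3b1 and Insl3 were below the floor on both E12.5 female arrays. This sum, too, does not stand for each marker. The WT array of the E14.5 female pair is the one that carried testis transcripts. The part of these cells in the Postn and Mmp14 values was not tested.

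**Figure D2:**
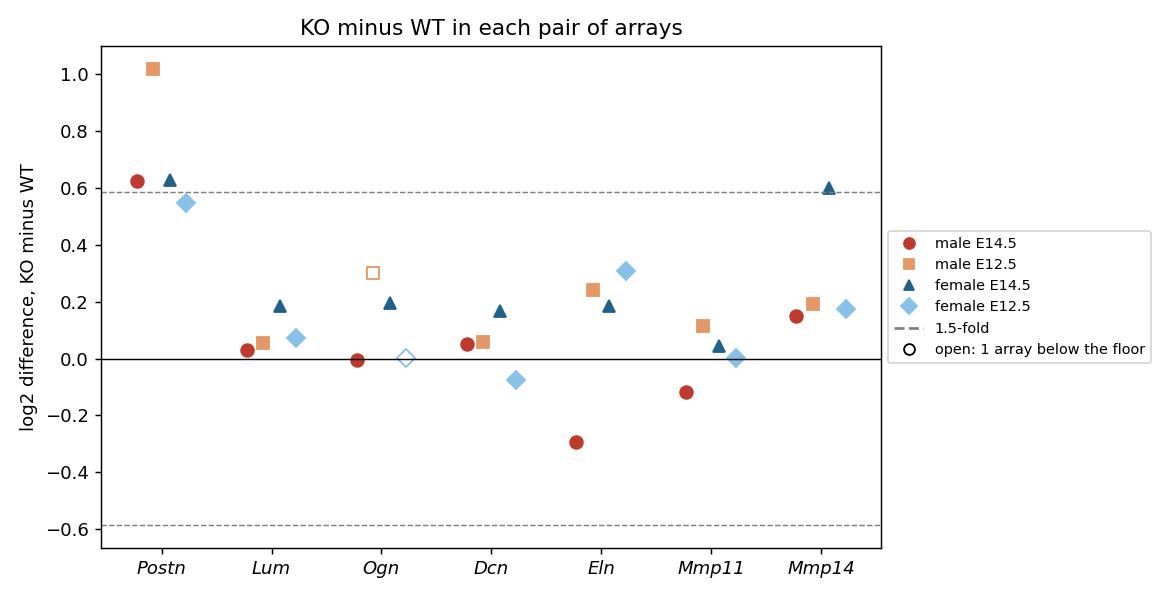
Log2 difference, KO minus WT, of each gene (x axis) in the 4 pairs of arrays; dashed lines mark 1.5-fold and open symbols have 1 array below the floor, so that they are lower bounds. Among the 7 probe sets plotted, 1 for each gene, Postn has the largest difference in each pair, and all its pairs but that of E12.5 females lie beyond the upper line, while Eln has values on both sides of 0.

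Other matrix genes were read from lists of 13 small leucine-rich proteoglycans, 16 matricellular proteins, 20 elastic fibre genes, 26 metalloproteinases and inhibitors, 14 fibrillar and associated collagens and 14 genes of collagen processing. Outside the 7 genes, 47 were fitted, and none passed for the KO effect over both sexes, where 24 were positive and the median was 0.00. The largest values were those of the thrombospondin gene Thbs3 (0.24 ± 0.09), the tenascin gene Tnc (0.22 ± 0.15), Pcolce, which enhances procollagen processing (-0.17 ± 0.09), and the proteoglycan gene Bgn (-0.16 ± 0.05). Tnc was below the floor in WT females at both stages and in WT males at E12.5. Its fitted value is therefore set in part by the floor. The KO minus WT difference of Tnc was at least 0.55 in E12.5 males, 0.28 in E14.5 females and 0.41 in E12.5 females. In E14.5 males it was -0.38. Bgn encodes biglycan, the closest relative of decorin, and was lower in KO gonads in all 4 pairs, by 0.05 to 0.28. Of 12 TGF-beta signalling genes 5 were positive and none passed, with Tgfb2, a ligand, at 0.51 ± 0.08. Tgfb2 was at 7.39 in KO and 7.02 in WT males at E14.5 and at 8.37 in KO and 7.72 in WT males at E12.5. In females it was at 7.73 in KO and 7.06 in WT gonads at E14.5, and at 7.49 in KO and 7.16 in WT gonads at E12.5.

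E14.5 was compared with E12.5 to ask how the stromal matrix develops in ovary and testis. In females Lum, Ogn, Eln and Dcn were 2-fold or more higher at E14.5 in both genotypes, and Postn was higher by less. In males Eln, Dcn and Ogn were higher at E14.5, Lum was level, and Postn, Mmp14 and Mmp11 were lower. At adjusted p under 0.05 in the limma fit, 5 of 7 genes were higher in females at E14.5 and 0 lower, beside 8.41% of all fitted probe sets higher and 14.6% lower. In males 3 were higher and 3 lower, beside 38.0% and 39.9% of all. Nothing is read from these counts, since the genes were picked with these values known. In females they rest on all 8 arrays: 0 probe sets passed when any 1 array was left out, which leaves 1 residual degree of freedom.

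Lum was at 9.66 in KO males and 9.63 in WT males at E14.5, and at 9.70 and 9.64 in KO and WT males at E12.5. In females it was at 11.31 in KO and 11.12 in WT gonads at E14.5, and at 9.74 in KO and 9.67 in WT gonads at E12.5. The E14.5 ovaries stood above the other 6 arrays, which lay between 9.63 and 9.74. With 1 array a group, no order is read among those 6. The stage difference was 1.57 in KO females and 1.45 in WT females, fitted at 1.51 ± 0.06 (2.85-fold), and -0.04 in KO males and -0.01 in WT males, fitted at -0.03 ± 0.06.

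Dcn, next to Lum on the chromosome, was higher at E14.5 in both sexes. It read 12.11 in KO males and 12.06 in WT males at E14.5, against 11.27 in KO males and 11.21 in WT males at E12.5. It read 12.21 in KO females and 12.04 in WT females at E14.5, against 10.91 in KO females and 10.99 in WT females at E12.5. The 4 E14.5 arrays lay above the 4 E12.5 arrays with no overlap. Fitted stage differences were 0.84 ± 0.07 in males and 1.17 ± 0.07 in females.

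Eln had the same order of stages. Its fitted difference was 1.22 ± 0.14 in males, with 0.95 in KO and 1.48 in WT males, and 1.31 ± 0.14 in females, with 1.24 in KO and 1.37 in WT females. All 4 E14.5 arrays (10.38 to 10.73) were above all 4 E12.5 arrays (9.01 to 9.49). Acta2 was likewise higher at E14.5 on all 4 pairs, at 9.58 and 10.26 in KO and WT males and 9.39 and 9.48 in KO and WT females, against 8.65, 8.17, 8.48 and 7.89 at E12.5. Mylk, the brightest of the 7 fitted smooth muscle markers, was lower at E14.5 in males. It was at 9.35 in KO and 9.85 in WT males at E14.5, against 10.03 and 9.99 at E12.5. In females it was higher at E14.5, at 10.50 in KO and 10.59 in WT gonads, against 10.07 and 9.85 at E12.5. The fitted male stage difference was positive for 6 of the 7 markers and negative for 1, beside 48.3% positive over all fitted probe sets. Like the other male stage values, those of the markers depend on the centring. The summed smooth muscle signal differed by 0.38 and 0.89 in KO and WT males and by 0.52 and 0.77 in KO and WT females. Its part in the Eln values was not tested.

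Ogn was near or below the floor at E12.5 and above it at E14.5. It was at 7.81 in both KO and WT males and at 8.54 in KO and 8.34 in WT females at E14.5, against 7.29 in KO males, below the floor in WT males, 6.99 in KO females and below the floor in WT females at E12.5. The difference was 0.52 in KO males and 1.55 in KO females, and at least 0.82 in WT males and 1.36 in WT females. The fitted differences were 0.67 ± 0.10 in males and 1.45 ± 0.10 in females, and 0.71 in males and 1.45 in females with no floor. The second Ogn probe set gave at least 0.90 in KO females and could not be read in the others.

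Postn had opposite signs in the sexes. The E14.5 minus E12.5 difference was -0.81 in KO males and -0.41 in WT males, and 0.54 in KO females and 0.46 in WT females. Both metalloproteinases were lower in males at E14.5. Mmp11 was at 7.87 in KO and 7.99 in WT males at E14.5, against 8.85 in KO and 8.73 in WT males at E12.5. In females it was at 8.67 in KO and 8.63 in WT gonads at E14.5, against 8.49 in KO and 8.48 in WT gonads at E12.5. The fitted Mmp11 difference was -0.86 ± 0.08 in males and 0.17 ± 0.08 in females, and that of Mmp14 was -0.45 ± 0.11 in males and -0.16 ± 0.11 in females.

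The male values depend on how the arrays were put on 1 scale. With the values as deposited, the fitted male difference was -0.81 for Lum, -0.06 for Ogn and 0.07 for Dcn, in place of -0.03, 0.67 and 0.84 after centring, so that Ogn turned, Dcn no longer passed and Lum passed as lower. With quantile normalization Lum passed as higher (0.22), and Mmp14 (-0.14) no longer passed. Eln stayed higher (at least 0.44) and Postn (-1.39 to -0.40) and Mmp11 (-1.64 to -0.83) stayed lower in males at E14.5 under these and the other settings that used all arrays. In females Lum, Ogn, Dcn and Eln stayed between 0.92 and 1.62. With no filter on dim probe sets these values were the same, but of the 5 female calls that of Lum was kept and those of Ogn, Dcn, Eln and Postn were lost (limma adjusted p of 0.0626, 0.0578, 0.0778 and 0.155). The male call of Mmp14 was lost there too (limma adjusted p of 0.0854). Without centring the female difference of Postn was 0.25 and did not pass, and that of Mmp14 was -0.42 and passed as lower.

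At 1.5-fold, Lum, Ogn, Dcn and Eln were higher at E14.5 in KO females (4 of 7, with 2.11% of all probe sets) and in WT females (4 of 7, with 2.28%), and each also reached 2-fold. None was lower in KO females (3.01% of all) or WT females (3.28%). In KO males Dcn and Eln were higher (2 of 7, with 19.3% of all) and Postn and Mmp11 lower (2 of 7, with 25.5%). In WT males Ogn, Dcn and Eln were higher (3 of 7, with 19.9%) and Mmp11 lower (1 of 7, with 25.0%).

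**Figure D3:**
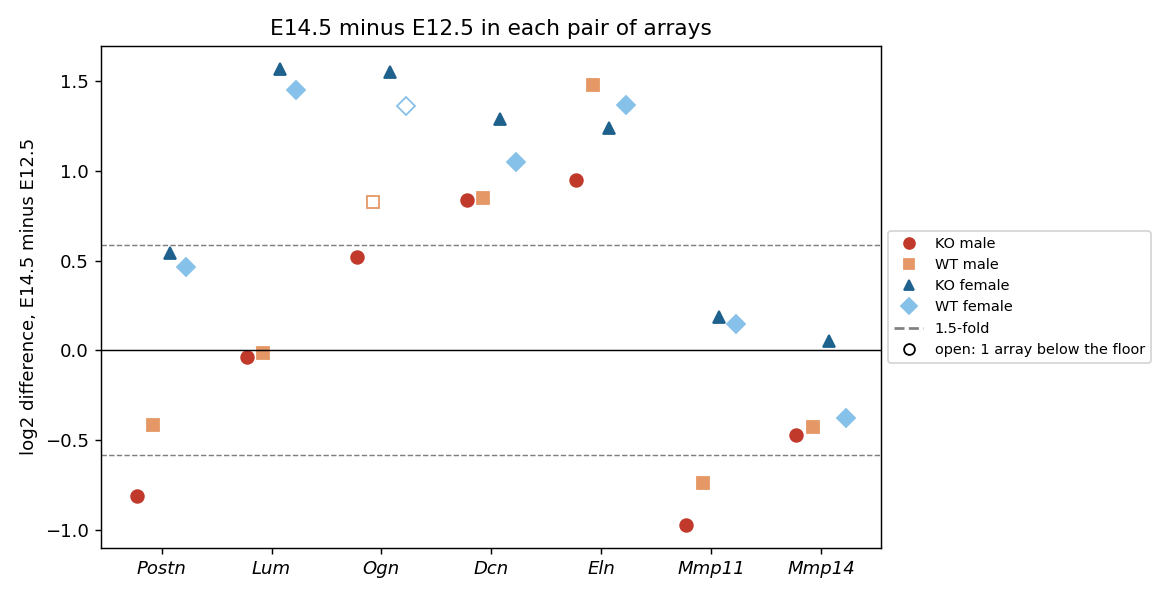
Log2 difference, E14.5 minus E12.5, of each gene (x axis) in KO and WT males and KO and WT females; dashed lines mark 1.5-fold and open symbols are lower bounds. Female values of Lum, Ogn, Dcn and Eln lie between 1.05 and 1.57, and the male values of Lum lie at 0.

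Among the 47 other matrix genes, 10 rose and 3 fell in females at E14.5 in the same fit, with a median of 0.10 against -0.02 for all probe sets. Over all probe sets 8.41% passed upward and 14.6% downward. Lox, which cross-links elastin and collagen, and the thrombospondin gene Thbs2 were below the floor on both E12.5 female arrays, so their fitted values of 1.14 and 0.96 are set by the floor. The other 8 that rose were Col6a2 (1.12 ± 0.18) and Col6a1 (0.94 ± 0.13), chains of collagen VI, the microfibril gene Mfap4 (0.83 ± 0.10), Bgn (0.56 ± 0.07), Sparc (0.49 ± 0.11), the metalloproteinase inhibitor gene Timp3 (0.43 ± 0.09), Col3a1 (0.42 ± 0.07) and the proteoglycan gene Fmod (0.34 ± 0.07). Those that fell were the procollagen proteinase gene Bmp1 (-0.46 ± 0.08), the prolyl hydroxylase gene P4ha1 (-0.44 ± 0.07) and Ltbp1, which binds latent TGF-beta. Ltbp1 was below the floor on both E14.5 female arrays, so its fitted -0.33 is set by the floor. The Mfap4 set has the suffix that marks cross-hybridisation among related genes. These calls, too, were lost with any 1 array left out.

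By list and without the 7 genes, 2 of 3 fitted proteoglycans passed upward in females and 0 downward, 2 of 10 elastic fibre genes upward and 1 downward, 2 of 9 matricellular genes upward and 0 downward, and 3 of 12 collagens upward and 0 downward. Of 7 metalloproteinases and inhibitors 1 passed upward, and of 8 collagen processing genes 1 upward and 2 downward. In males 15 of the 47 other genes passed upward and 17 downward, where 38.0% of all probe sets passed upward and 39.9% downward. Lox and Thbs2 were below the floor on all 4 male arrays, and in females Lox was at 8.30 in KO and 7.96 in WT gonads at E14.5 and below the floor at E12.5. Of the 12 TGF-beta signalling genes 0 passed upward and 3 downward in females (Smad7, Smad4 and Smad3), and 1 upward and 5 downward in males, against the same shares of all probe sets. Smad3 was below the floor on both E14.5 female arrays, so its fitted -0.21 in females is set by the floor.

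**Figure D4:**
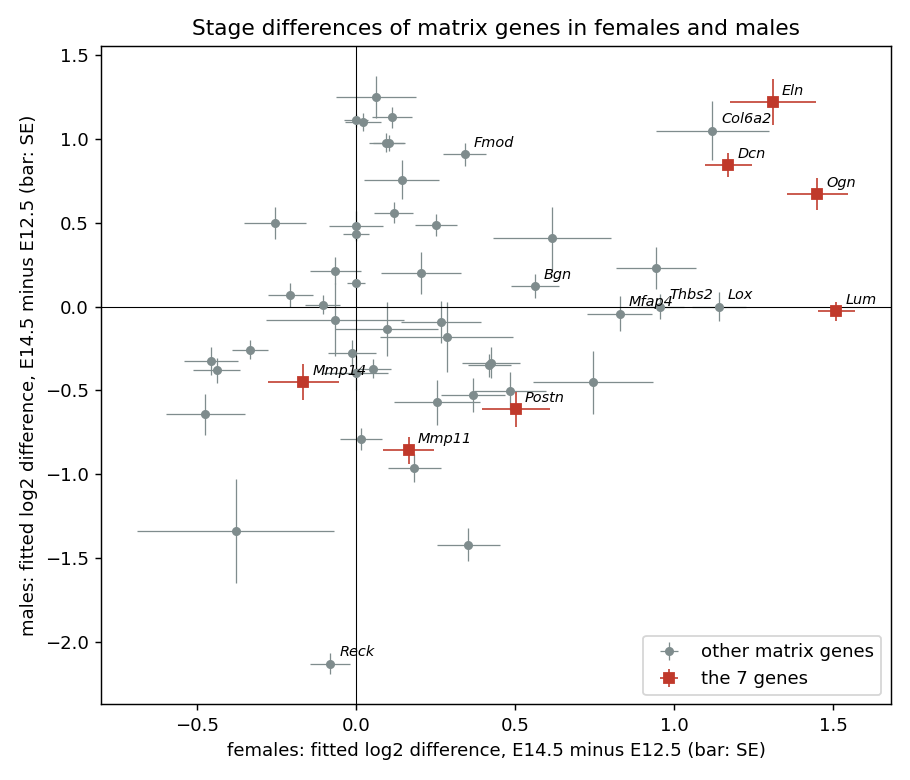
Fitted log2 difference, E14.5 minus E12.5, in females (x axis) and males (y axis) for the 7 genes (squares) and the 47 other matrix genes (circles), with SEs as bars. Eln, Dcn, Ogn and Col6a2 lie at the upper right, Lum lies at 1.51 on the female and -0.03 on the male axis, and Lox and Thbs2, below the floor on all male arrays, lie at 0 on the male axis.

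Male gonads were set against female gonads at each stage. At E12.5 the 7 genes differed by at most 0.36, and 0 of 7 were 1.5-fold apart in KO gonads (2.52% of all probe sets higher and 0.971% lower in males) or in WT gonads (1.37% and 1.42%). Dcn, Eln, Mmp11 and Mmp14 were higher in males in both genotypes, by 0.17 to 0.36. At E14.5 Postn, Lum, Ogn and Mmp11 were 1.5-fold or more lower in KO males than KO females (4 of 7, with 21.2% of all), and Postn, Lum and Mmp11 in WT males than WT females (3 of 7, with 25.0%). None was 1.5-fold higher in males (20.5% and 20.9% of all). The widest gaps were those of Lum, at -1.65 in KO gonads, with 9.63 in WT males and 11.12 in WT females, and Postn, at -1.14 in KO and -1.13 in WT gonads. Dcn differed by -0.09 in KO and 0.02 in WT gonads at that stage. Averaged over genotype and stage, 4 of 7 genes were lower in males and 0 higher at adjusted p under 0.05 in limma, beside 35.2% and 36.5% of all probe sets, and again nothing is read from this count. The stage difference in males minus that in females passed as lower for 5 of 7 genes (Postn, Lum, Ogn, Dcn and Mmp11) and as higher for 0, beside 33.8% and 35.2% of all.

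The 7 genes did not share 1 profile. With the E14.5 males left out, Lum, Ogn, Dcn and Eln correlated pairwise at r of 0.96 to 0.99 (Pearson, 6 arrays), and Mmp14 with these 4 at -0.34 to -0.47. Over all 8 arrays Dcn and Eln correlated at 0.97 and Lum and Eln at 0.49. Postn correlated with the other 6 genes at -0.03 to 0.63 over the 8 arrays. Without the E14.5 males this was 0.56 to 0.68 with Lum, Ogn, Dcn and Eln, and 0.20 to 0.22 with Mmp14 and Mmp11. These points share arrays and few conditions, so the values describe the profiles and carry no test.

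Among 3620 genes whose SD over the arrays was at least 0.3, those most like Eln over the 8 arrays were Col6a2 (r = 0.990), the smooth muscle gene Tagln (0.985) and Kcnn1 (0.973). For Lum they were Penk (0.989), which encodes proenkephalin, Ocel1 (0.987) and Spata5 (0.984), and for Ogn the meiotic gene Sycp1 (0.972), Nfix (0.970) and Adad1 (0.969). For Postn they were Thbs3 (0.895), the sphingosine kinase gene Sphk1 (0.880) and Maged2 (0.877). With 8 arrays and 2 of them apart from the rest, high correlations are common, and they were 0.906 or more for all 12 genes over the other 6 arrays.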

How the data were processed

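The authors deposited log2 values of 12488 probe sets on 8 arrays, made with MAS5 per the submitters' processing notes; its version and scaling are not stated there. In the KO male E12.5 column, which is of the same log2 scale as far as its values show, 14 cells held whole numbers from 41278 to 41284, spreadsheet dates, and were set to missing; none belongs to the 7 genes. The deposited range, 2.36 to 15.0, fits log2. Arrays were centred on the mean of their medians (7.51), values under the 40th percentile (6.99) were set to this floor for fits and bounds, and 66 control probe sets were left out. Probe sets above the floor on 2 or more arrays (8452) were fitted with limma 3.58.1 in R 4.3.3 (sex × genotype plus sex × stage, intensity trend, Benjamini-Hochberg over all fitted sets at 0.05, two-sided). The fit has 2 residual degrees of freedom, which come from how far the genotype effect differs between stages, plus 2.77 prior ones. The fit was tested on simulated data with the same noise for every probe set, no floor and KO shifts of 2-fold or more. That test does not speak for smaller shifts or for arrays that stand apart. Of the non-control sets, 10833 had 1 gene symbol (10817 of them matched RefSeq), 396 had several and 1193 had no symbol. The set with the highest mean stood for a gene. Genes were named by rule: the 7 members, list genes that passed, up to 4 largest per list, the 3 brightest markers and the 3 most alike. Kera, Epyc and Omd were added after their values were seen. Aspn was also added, though no probe set was annotated to it alone. The members, lists and tests were chosen with earlier results of these data known. Summed marker signals are log2 of the sum of linear signals.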

Additional observations from a re-analysis of the deposited data

Results flagged for a closer look

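The stage difference in males minus that in females was taken as an interaction term of the limma fit, where 35.2% of all fitted probe sets passed upward and 33.8% downward. Since the 7 genes were selected on signals that include these, the values are a description and support nothing. The term was below 0 for 7 of 7 genes, while it was above 0 for 51.4% of all fitted probe sets. The sign for Eln depends on the scaling. With quantile normalization its stage difference was 1.48 in males and 1.36 in females, which turns the order. It was beyond the threshold for Lum at -1.54 ± 0.08, Postn at -1.12 ± 0.15, Mmp11 at -1.02 ± 0.11, Ogn at -0.78 ± 0.14 and Dcn at -0.33 ± 0.10. Eln (-0.09 ± 0.19) and Mmp14 (-0.29 ± 0.16) were not. These values rest on the E14.5 male arrays, which stood apart from the rest.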

How the results depend on the processing

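The KO counts of 0 probe sets, over both sexes, in each sex and for the difference between the sexes, stayed at 0 with no floor, a lower floor, no centring, quantile normalization, no filter, no intensity trend, any 1 array left out (0 to 0) and both E14.5 male arrays left out. With genotype fitted within stage, 7 probe sets passed at E12.5, none of them among the 7 genes, and 0 at E14.5. The count for stage in females, 1949, was 5156 without centring, 40 without the filter, 0 without both E14.5 male arrays and 0 to 0 with any 1 array left out; fewer arrays leave fewer degrees of freedom. Counts for stage in males, stage by sex and the sex difference stayed within 1.5 times. Ogn in males at E14.5 turned to -0.065 without centring. The KO effect of Postn stayed between 0.61 and 0.80 over both sexes with any 1 array left out, and that of Mmp14 between 0.17 and 0.39. Averaging both probe sets gave Ogn a male stage difference of 0.33, which did not pass. At 2-fold, 1 KO pair difference remained, Postn in males at E12.5. No paired analysis was possible because each group has 1 array and the labels give no replicate numbers. Signal near the floor limits Ogn at E12.5.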
